A study of Homo sapiens with 6 samples.

Results

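MicroRNA host gene transcripts are long RNAs from which microRNAs are cut, named after the microRNA they hold with the suffix HG. They were chosen by symbol alone, as every gene named MIR followed by letters or digits and HG, let-7 hosts included. A gene name table held 74 such symbols, and 72 of these had a row among the 78932 genes of the deposited files. A host was counted as expressed at a mean of at least 10 reads over all 6 libraries, which 29 of the 72 reached. The study examined menin in T-lineage acute lymphoblastic leukaemia. This experiment was meant to raise MEF2C, a transcription factor of muscle and blood cells, in KARPAS-45 cells. KARPAS-45 is a human T-cell leukaemia line that carries a KMT2A fusion. The 3 MEF2C-OE libraries came from cells given a lentivirus in which the EF1A promoter drives MEF2C together with the red fluorescent protein mCherry, and mCherry-positive cells were sorted 120 hours after transduction. The 3 control libraries came from the same line, labelled wild type and untreated, and the sources used here do not say whether these cells received an empty vector or a sort. The labels call the 3 libraries of each group technical replicates, and a p-value here therefore reflects spread between these libraries, which may be technical.

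A microRNA begins as a hairpin in a long primary transcript. DROSHA and DGCR8 cut the hairpin out in the nucleus, exportin 5 carries it to the cytoplasm, and DICER1 trims it to the mature strand that an Argonaute protein holds. Bases 2 to 8 of the mature strand, the seed, pair with target messenger RNAs, so microRNAs with the same seed share most targets. A host transcript loses its hairpin as it is processed, and a hairpin in an intron can be cut out without harm to the spliced host RNA. The libraries measured long RNA only, so the level of a host is not the level of its microRNA. In blood cells miR-142 is a marker of the haematopoietic lineage, miR-181a tunes T-cell receptor signalling, the miR-17 cluster is a MYC target that favours lymphocyte growth, miR-155 is induced by lymphocyte activation, and miR-210 is the best known microRNA of the hypoxia response.

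The mature microRNAs of 8 hosts whose transcripts changed are shown here because the hosts are compared by the microRNAs they carry. The sequences are from RefSeq (GRCh38.p14), written 5′ to 3′, and the capitals mark the seed.
miR-210-3p, in MIR210HG: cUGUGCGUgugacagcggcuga
miR-142-5p, in MIR142HG: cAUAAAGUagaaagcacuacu
miR-142-3p, in MIR142HG: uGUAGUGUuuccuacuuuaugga
miR-23a-3p, in MIR23AHG: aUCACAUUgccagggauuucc
miR-27a-3p, in MIR23AHG: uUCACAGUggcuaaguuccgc
miR-24-3p, in MIR23AHG: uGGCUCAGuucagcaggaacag
miR-17-5p, in MIR17HG: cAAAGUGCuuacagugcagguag
miR-20a-5p, in MIR17HG: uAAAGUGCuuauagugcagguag
miR-19a-3p, in MIR17HG: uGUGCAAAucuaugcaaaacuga
miR-92a-3p, in MIR17HG: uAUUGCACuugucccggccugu
miR-155-5p, in MIR155HG: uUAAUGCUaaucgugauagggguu
let-7a-5p, in MIRLET7A1HG: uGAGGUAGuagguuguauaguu
let-7c-5p, in MIR99AHG: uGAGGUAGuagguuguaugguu
miR-99a-5p, in MIR99AHG: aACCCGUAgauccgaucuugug
miR-181a-5p, in MIR181A1HG: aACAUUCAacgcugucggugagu
miR-181b-5p, in MIR181A1HG: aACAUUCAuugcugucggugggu
Within MIR17HG, miR-17 and miR-20a share the seed AAAGUGC. MIR99AHG and MIRLET7A1HG both carry a let-7 with the seed GAGGUAG. The miR-181 pair of MIR181A1HG shares ACAUUCA.

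The libraries held 48218497 to 56890745 reads in genes, and 70.9% to 71.3% of each library's reads were assigned to a gene. MEF2C was at 0.0659 ± 0.0982 CPM (depth-scaled read counts) in control and 0.680 ± 0.0730 CPM in MEF2C-OE (SD, n = 3), which is 3.28 on the log2 scale (edgeR's quasi-likelihood test, adjusted p = 1.5e-05). It had 10, 1 and 0 reads in the control libraries and 40, 29 and 41 in the MEF2C-OE libraries. This fold therefore rests on few reads, and MEF2C stayed under 1 CPM in every MEF2C-OE library. The 6 T-lineage markers examined (CD3D, CD3E, CD3G, CD2, CD5 and CD7) were all detected. Their summed level was 1680 to 1686 CPM in control and 1374 to 1476 CPM in MEF2C-OE. Of these, 4 fell (CD3D, CD3E, CD3G and CD2), and 20.2% of all genes tested were lower. After removal of the trend of fold change with GC content and length these 4 stayed lower. CD5 (0.17 on the log2 scale) and CD7 (0.21) were then called higher. Of 12 markers of other cell types, 4 had no read in any library (MS4A1, HBB, EPCAM and VWF), and the summed level was 73.7 to 81.9 CPM in control and 71.0 to 75.5 CPM in MEF2C-OE, nearly all of it PECAM1 (means of 74.3 and 70.4 CPM). Their part in the results was not tested.

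Of the host transcripts, 3 rose in MEF2C-OE and 7 fell. MIR210HG had the lowest log2 fold change of the 29 tested hosts that fit the naming rule, and MIR142HG, MIR23AHG, MIRLET7A1HG, MIR17HG, MIR155HG and MIR600HG fell by less. MIR99AHG, MIR646HG and MIR181A1HG rose. The test was run on 29 hosts, 28 expressed ones and MIR4733HG, with p-values adjusted over all 19086 genes tested and a call at an adjusted p under 0.05, and 19 hosts were not called. The share of tested hosts that were called was 34.5%, against 41.0% of all genes tested, of which 20.8% were higher and 20.2% lower. The share over all genes takes in genes at low levels. A fit limited to genes with at least 1 CPM in 3 libraries called 3 of 25 hosts higher and 7 lower. It called 3777 of 14025 genes higher and 3807 lower. In 12 of the 29 tested hosts the libraries of both groups did not overlap, against 48.8% of all genes. By direction, 10.3% of the tested hosts were higher and 24.1% lower, and whether these shares differ from those of all genes was not tested. Their median log2 fold change was -0.004, beside -0.01 over all tested genes, whose quartiles were -0.23 and 0.19. After removal of the trend of fold change with GC content and length, 5 hosts were higher and 7 lower, and the 10 calls above were kept. In bulk RNA, fewer cells that express a transcript and less of it per cell cannot be told apart.

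**Figure D1:**
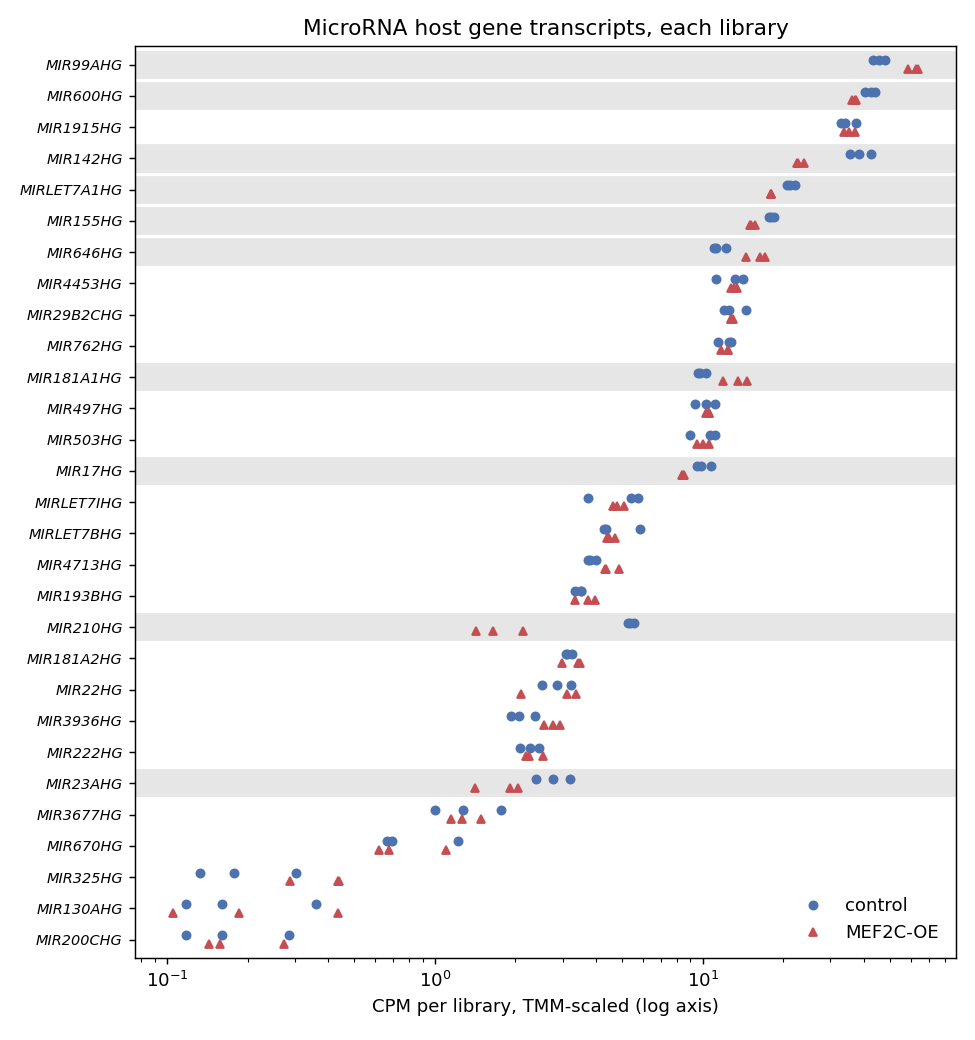
Level of each expressed host transcript in every library, in CPM on a log axis, with circles for the 3 control and triangles for the 3 MEF2C-OE libraries and grey bands behind the 10 called hosts. The triangles of MIR210HG sit at 1.42 to 2.13 CPM, left of its circles at 5.27 to 5.55 CPM, while most of the hosts without a band have circles and triangles that overlap.

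MIR210HG, the host of miR-210, is a transcript of 2321 exon bases on chromosome 11 (chr11:565660-568457, minus strand, hg38), annotated as a long intergenic RNA. It had 295, 282 and 282 reads in the control libraries and 117, 69 and 94 in the MEF2C-OE libraries. Scaled for depth, these were 5.27, 5.34 and 5.55 CPM in control and 2.13, 1.42 and 1.64 CPM in MEF2C-OE. Every MEF2C-OE library lay below every control library, and the control libraries lay close together. The mean level went from 5.39 ± 0.144 to 1.73 ± 0.362 CPM (SD, n = 3), a 3.10-fold fall, or -1.63 on the log2 scale (SE 0.15, edgeR adjusted p = 6.3e-12). Among the 19086 tested genes, 68 (0.356%) had a larger fall, and MIR210HG was the only host that fits the naming rule among the 509 genes called at a change of at least 2-fold. The MIR210 hairpin lies in its intron and has a row of its own, with 10, 0 and 6 reads in control and 0, 1 and 0 in MEF2C-OE. These few reads allow no fold.

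Hypoxia-inducible factors switch on miR-210 together with many other genes, so 15 hypoxia-inducible genes were examined beside MIR210HG. Of the 12 tested, 9 fell (75%, against 20.2% of all genes), 1 rose and 2 were not called, with a median log2 fold change of -0.26. Limited to genes with at least 1 CPM in 3 libraries, the fit called 3807 of 14025 genes lower. With the trend of GC content and length removed 8 fell, since NDRG1, whose groups overlapped, lost its call (-0.21, adjusted p = 0.0968). HIF1A, the oxygen-regulated subunit of the factor, had a log2 fold change of 0.13 (edgeR adjusted p = 4.2e-04), which was not called with the trend removed (0.04, adjusted p = 0.316). These values are of HIF1A RNA, and the part of HIF1A in the falls was not tested. ADM, the gene of the vasodilator adrenomedullin, had the largest fall of the list, by 1.79 on the log2 scale from 1.11 ± 0.172 to 0.321 ± 0.0971 CPM (edgeR adjusted p = 3.6e-05). ANKRD37, an ankyrin-repeat protein induced by hypoxia, fell by 1.03 on the log2 scale, from 3.56 ± 0.0286 to 1.76 ± 0.556 CPM (edgeR adjusted p = 8.9e-06). PDK1, a kinase that inhibits pyruvate dehydrogenase, fell by 0.60, and P4HA1, which hydroxylates collagen, fell by 0.50. EGLN3, an oxygen sensor, fell by 0.28. VEGFA, the growth factor of blood vessels, went the other way and rose by 0.54, from 119 ± 1.66 to 173 ± 4.11 CPM (edgeR adjusted p = 4.3e-20).

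MIR142HG, the host of miR-142 (chr17:58330884-58332508, minus strand, hg38; 1 exon of 1625 bases), had the highest level per length of the expressed hosts in control, at 23.9 CPM per kilobase of exon (RPKM). It was at 38.4, 42.4 and 35.6 CPM in the control libraries and 22.8, 23.9 and 22.6 CPM in the MEF2C-OE libraries. The groups stood apart, with the control libraries the more spread. The mean went from 38.8 ± 3.44 to 23.1 ± 0.720 CPM (SD, n = 3), and the log2 fold change was -0.75 (SE 0.058, edgeR adjusted p = 2.2e-14). With the trend of GC content and length removed, MIR142HG was at -0.52 (edgeR adjusted p = 5.8e-11). TSPOAP1, the nearest tested protein-coding gene, lies 2124 bases away on the same strand, and it fell by 0.74 on the log2 scale, from 86.4 ± 2.02 to 51.5 ± 1.93 CPM (edgeR adjusted p = 2.8e-20). In both the host and its neighbour every MEF2C-OE library lay below every control library.

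MIR23AHG carries miR-23a, miR-27a and miR-24-2, a cluster found in many blood cells (chr19:13823880-13842928, minus strand, hg38). The control libraries had 2.39, 2.77 and 3.19 CPM and the MEF2C-OE libraries 1.91, 2.04 and 1.42 CPM. The groups did not overlap, although the lowest control and the highest MEF2C-OE library were close. The log2 fold change was -0.64 (SE 0.19, edgeR adjusted p = 0.00452). Its annotated span of 19049 exon bases puts it at 0.146 RPKM in control, and 12.0% of these bases also lie in exons of ZSWIM4 on the opposite strand. ZSWIM4 itself fell by 0.32 on the log2 scale. The sources used here do not state the strand setting of the counting. MIR219B, a microRNA on the opposite strand inside the only annotated exon of MIR219A2HG, had 1, 8 and 5 reads in control. It had 5, 3 and 8 reads in MEF2C-OE. Counting without regard to strand would leave such reads ambiguous, if the models counted match the annotation. Whether reads of MIR23AHG and ZSWIM4 were kept apart was not tested.

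The other 4 hosts that fell changed by less. MIR155HG (chr21:25561909-25575168, plus strand, hg38), first known as the BIC transcript of lymphoma, was at 17.9, 17.7 and 18.5 CPM in control and 15.1, 15.0 and 15.6 CPM in MEF2C-OE. Its groups did not overlap and its libraries lay close together, with a log2 fold change of -0.24 (SE 0.068, edgeR adjusted p = 0.00337). MIR17HG (chr13:91347820-91354579, plus strand, hg38), the host of the miR-17 to miR-92a cluster, was at 9.49, 10.8 and 9.86 CPM in control and 8.45, 8.53 and 8.38 CPM in MEF2C-OE. All MEF2C-OE libraries of MIR17HG lay below all control libraries, with a log2 fold change of -0.25 (SE 0.090, edgeR adjusted p = 0.0243). This call was lost with DESeq2 (adjusted p = 0.0524) and, in edgeR, without control replicate 2 (adjusted p = 0.146). It was also lost without MEF2C-OE replicates 1 and 3 in turn, at edgeR adjusted p-values of 0.0622 and 0.0643. MYC, which drives the cluster in many cells, fell by 0.31 on the log2 scale, from 131 to 105 CPM (edgeR adjusted p = 1.3e-11; -0.21 with the trend of GC content and length removed), and its part in this result was not tested.

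MIRLET7A1HG, the host of let-7a-1, let-7f-1 and let-7d, was at 22.2, 20.7 and 21.2 CPM in control and 17.9, 18.0 and 18.0 CPM in MEF2C-OE. The groups did not overlap, and the log2 fold change was -0.25 (SE 0.063, edgeR adjusted p = 0.00129). The release used in the counting is not stated, and the GENCODE 29 model (chr9:94176458-94177892, plus strand, hg38) is a single exon that holds none of the 3 hairpins. These lie within the longer RefSeq bounds of the gene. On the opposite strand LINC02603 covers 78.7% of its exon bases, and LINC02603 had 0 reads in every library. MIR600HG, the host of miR-600 (chr9:123109494-123115477, minus strand, hg38), was at 44.2, 40.5 and 42.7 CPM in control and 37.1, 36.2 and 37.4 CPM in MEF2C-OE, again without overlap. Its log2 fold change was -0.20 (SE 0.047, edgeR adjusted p = 5.1e-04). MIR600HG lies inside STRBP on the same strand, sharing 4.24% of its exon bases, and STRBP rose by 0.40 on the log2 scale.

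MIR99AHG, the host of miR-99a, let-7c and miR-125b-2 (chr21:15928296-16645065, plus strand, hg38), had the highest depth-scaled level of the hosts. It was at 48.0, 43.4 and 45.4 CPM in control and 58.6, 63.8 and 62.6 CPM in MEF2C-OE. All MEF2C-OE libraries lay above all control libraries, the mean going from 45.6 ± 2.28 to 61.7 ± 2.72 CPM (SD, n = 3). The log2 fold change was 0.44 (SE 0.043, edgeR adjusted p = 2.8e-11), and USP25, a deubiquitinase gene 48227 bases away, rose by 0.27.

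MIR181A1HG, the host of miR-181a-1 and miR-181b-1 (chr1:198807493-198937429, minus strand, hg38), was at 9.74, 9.57 and 10.3 CPM in control and 14.6, 11.9 and 13.5 CPM in MEF2C-OE. The MEF2C-OE libraries were the more spread and all lay above the control libraries. Its log2 fold change was 0.44 (SE 0.085, edgeR adjusted p = 4.1e-05). PTPRC, the gene of the leukocyte antigen CD45, lies 50017 bases away on the opposite strand and rose by 0.06. MIR646HG (chr20:60087840-60527458, plus strand, hg38) was at 12.3, 11.2 and 11.0 CPM in control and 16.4, 17.1 and 14.5 CPM in MEF2C-OE. Its groups did not overlap, with a log2 fold change of 0.48 (SE 0.079, edgeR adjusted p = 3.2e-06). The MIR646 hairpin, in its intron, had 1, 2 and 3 reads in control and 14, 9 and 9 in MEF2C-OE, so this row too was higher in every MEF2C-OE library.

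**Figure D2:**
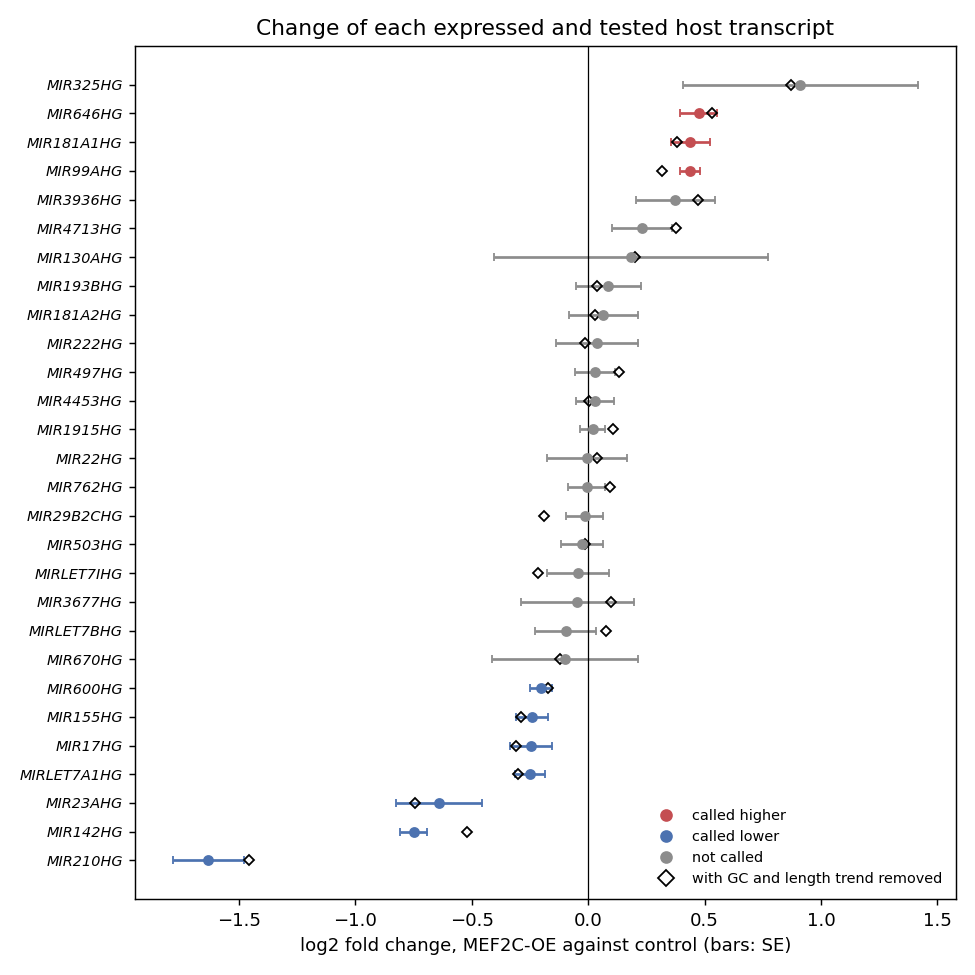
Log2 fold change of MEF2C-OE against control for the 28 expressed and tested hosts, with bars of 1 SE, coloured by call. Open diamonds give the value after removal of the trend with GC content and length. MIR210HG stands at -1.63, and the diamonds of all 10 called hosts lie on the same side of 0 as their circles.

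The let-7 and miR-181 families each have several expressed hosts that fit the naming rule, and hosts outside the rule are left out of this comparison. Within the rule the let-7 seed is carried by 4 expressed hosts, of which MIR99AHG rose, MIRLET7A1HG fell and MIRLET7BHG and MIRLET7IHG were not called. MIRLET7BHG was at 4.34, 5.85 and 4.29 CPM in control and 4.45, 4.69 and 4.41 CPM in MEF2C-OE, with overlapping groups and a log2 fold change of -0.10 (SE 0.13). MIRLET7IHG was at 5.75, 5.40 and 3.74 CPM in control and 4.62, 4.79 and 5.07 CPM in MEF2C-OE, with a log2 fold change of -0.04 (SE 0.13). In each of the latter hosts 1 control library stood away from the rest. The mature strands of these hosts differ outside the seed.
let-7b-5p, in MIRLET7BHG: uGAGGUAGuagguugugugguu
let-7i-5p, in MIRLET7IHG: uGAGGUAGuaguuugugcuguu
The seed of miR-181 is carried by MIR181A1HG, which rose, and by MIR181A2HG, which was at 3.11, 3.09 and 3.25 CPM in control and 3.44, 3.47 and 2.97 CPM in MEF2C-OE. The groups of MIR181A2HG overlapped, with a log2 fold change of 0.06 (SE 0.15). The difference in change between hosts of a family was not tested.

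MIR4713HG and MIR3936HG were not called, although their groups did not overlap. MIR4713HG was at 4.0, 3.81 and 3.74 CPM in control and 4.87, 4.36 and 4.32 CPM in MEF2C-OE, with a log2 fold change of 0.23 (edgeR adjusted p = 0.157). MIR3936HG was at 2.36, 2.06 and 1.93 CPM in control and 2.76, 2.94 and 2.55 CPM in MEF2C-OE, with a log2 fold change of 0.37 (edgeR adjusted p = 0.0783). Both were called higher once the trend with GC content and length was removed, at 0.37 (adjusted p = 0.0179) and 0.47 (adjusted p = 0.0268), and these make up the step from 3 to 5 higher hosts.

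Well-expressed hosts without a call included MIR1915HG, whose 32.9, 34.1 and 37.5 CPM in control and 33.6, 37.1 and 35.2 CPM in MEF2C-OE overlapped, with a log2 fold change of 0.02 (SE 0.053). MIR29B2CHG, the host of miR-29b-2 and miR-29c, was at 12.0, 14.5 and 12.6 CPM in control and 12.8, 12.8 and 13.0 CPM in MEF2C-OE. MIR503HG, the host of miR-503, was at 10.6, 11.1 and 8.95 CPM in control and 9.56, 10.5 and 10.1 CPM in MEF2C-OE. In MIR29B2CHG and MIR503HG the MEF2C-OE libraries lay inside the range of the control libraries, with log2 fold changes of -0.02 (SE 0.080) and -0.03 (SE 0.090). MIR4453HG, MIR762HG and MIR497HG, the host of miR-195 and miR-497, had log2 fold changes of 0.03, -0.01 and 0.03 at mean control levels of 10.2 to 12.9 CPM. MIR193BHG, MIR22HG and MIR222HG, the host of miR-221 and miR-222, had log2 fold changes of 0.09, -0.0042 and 0.04. MIR22HG, a host induced by many kinds of stress, was at 2.52, 2.86 and 3.23 CPM in control and 2.09, 3.12 and 3.36 CPM in MEF2C-OE, so its control libraries lay inside the range of the MEF2C-OE libraries.

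The remaining 5 expressed hosts were low. MIR3677HG and MIR670HG had log2 fold changes of -0.05 and -0.10, and MIR130AHG 0.18. MIR325HG went from 0.204 ± 0.0888 to 0.387 ± 0.0861 CPM, which is 0.91 on the log2 scale with an SE of 0.51 (edgeR adjusted p = 0.154), so the largest value among the uncalled hosts was also poorly determined. MIR200CHG, with a mean of 10.2 reads the host just inside the limit of expression, was left out of the test by the count filter, at 0.188 ± 0.0862 CPM in control and 0.191 ± 0.0707 CPM in MEF2C-OE. MIR4733HG, with a mean of 9.50 reads just outside the limit, passed the filter and had a log2 fold change of 0.64 (edgeR adjusted p = 0.425). Of the 43 hosts that were not expressed, 23 had no read in any library and none had more than 14 reads in a library. Among them were MIR223HG, whose microRNA marks myeloid cells, and MIR34AHG, a p53 target, with means of 0.333 and 0.833 reads. A count of 0 allowed up to 3 reads, or 0.0527 to 0.0622 CPM by library. All hosts together summed to 324 to 334 CPM in control and 320 to 326 CPM in MEF2C-OE.

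The annotation placed 52 microRNA loci on the same strand inside 28 of the 29 expressed hosts, 22 of them in an exon, 27 in an intron and 3 only within RefSeq bounds. Exons and introns here are those of GENCODE 29, and the models counted may differ. All 22 exonic hairpins had 0 reads in every library on rows of their own, whereas 13 of the 27 intronic hairpins had reads, up to 35 in a library. Reads over an exonic hairpin also lie in the host, and the files hold ambiguous reads only as a total, so the rows of exonic hairpins carry no measure of these loci. Of the 9 tested hosts with exonic hairpins only, 5 fell (MIR600HG, MIR142HG, MIR155HG, MIR17HG and MIR23AHG), none rose and 4 were not called, with a median log2 fold change of -0.20. Of the 15 with intronic hairpins only, 3 rose (MIR99AHG, MIR181A1HG and MIR646HG), MIR210HG fell and 11 were not called, with a median of 0.09. Over all genes tested, 20.8% were higher and 20.2% lower. The call of MIR17HG was lost in 4 of the alternatives. The difference between these groups of hosts was noticed in these data and was not tested.

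Among the 10 called hosts, the nearest tested protein-coding gene was called the same way for 4 (TSPOAP1, USP25, ZSWIM4 and PTPRC). It was called the other way for 3 and not called for 3. Of all genes tested, 20.8% were higher and 20.2% lower. The neighbours called the other way were STRBP beside MIR600HG, PTPDC1 beside MIRLET7A1HG (0.39 on the log2 scale, 66602 bases away) and GPC6 beside MIR17HG (0.11, 1872263 bases away). RASSF7, 1639 bases from MIR210HG on the opposite strand, was at 7.33 ± 1.04 CPM in control and 8.05 ± 0.871 CPM in MEF2C-OE and was not called (0.14, edgeR adjusted p = 0.333). MRPL39 beside MIR155HG and CDH26 beside MIR646HG were not called either. Several uncalled hosts share exon bases with a gene on the opposite strand, among them MIR762HG (56.4%, with BCL7C) and MIR497HG (38.2%, with C17orf49). Whether their reads were kept apart from those of these genes was likewise not tested.

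**Figure D3:**
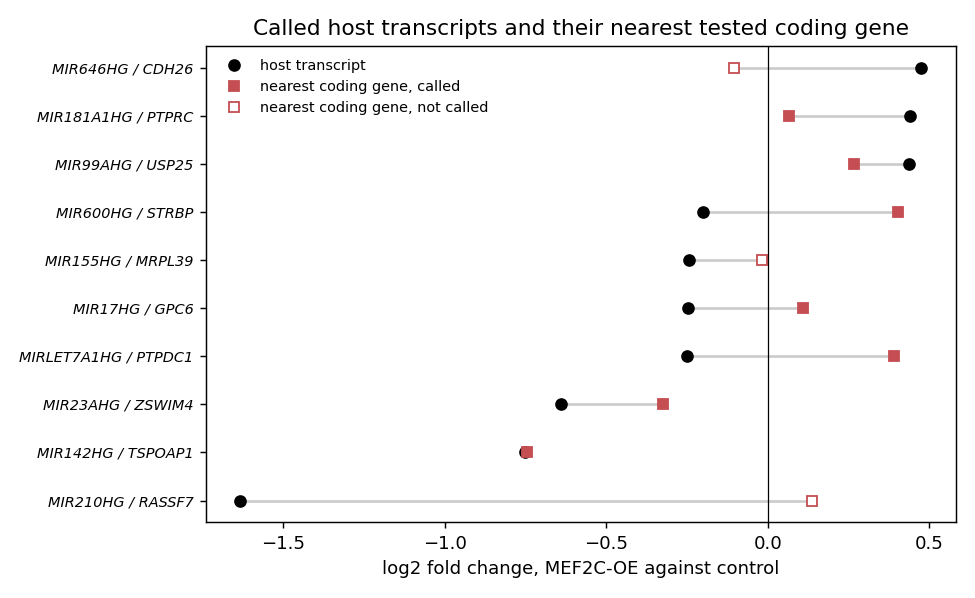
Log2 fold change of each called host (circle) and of its nearest tested protein-coding gene (square, filled where called), joined by a line. The square of TSPOAP1 covers the circle of MIR142HG at -0.74 and -0.75, while RASSF7 at 0.14 lies far from MIR210HG at -1.63.

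The promoters of MIR210HG and MIR142HG, the called hosts with the lowest log2 fold changes, are shown because 2 short motifs were searched in them on both strands. ACGTG is a form of the core to which hypoxia-inducible factors bind, and other forms of it were not searched. CACGTG is the E-box bound by MYC and related factors and contains ACGTG on either strand. Each sequence covers 250 bases before to 50 after the RefSeq start (GRCh38.p14), 5′ to 3′ on the host's strand, with motif matches in capitals.
MIR210HG, chr11:568408-568707, minus strand: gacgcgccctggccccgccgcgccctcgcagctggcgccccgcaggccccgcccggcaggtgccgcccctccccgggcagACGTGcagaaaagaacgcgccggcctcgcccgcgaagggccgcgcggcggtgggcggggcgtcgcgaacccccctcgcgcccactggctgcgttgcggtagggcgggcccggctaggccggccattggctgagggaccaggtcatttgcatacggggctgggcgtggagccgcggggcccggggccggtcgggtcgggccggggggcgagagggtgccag
MIR142HG, chr17:58332471-58332770, minus strand: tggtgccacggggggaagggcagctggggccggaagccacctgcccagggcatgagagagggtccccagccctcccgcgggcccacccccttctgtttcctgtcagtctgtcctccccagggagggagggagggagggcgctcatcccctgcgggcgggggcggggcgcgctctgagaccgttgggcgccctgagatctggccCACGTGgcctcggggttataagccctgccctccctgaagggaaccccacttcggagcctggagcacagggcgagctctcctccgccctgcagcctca
MIR210HG had 1 ACGTG, its first base at -170 from the start, in a window of 80% GC. MIR142HG had 1 CACGTG at -47. RefSeq gave 32 promoters for 27 of the expressed hosts, and 8 of these promoters (25%) held ACGTG, against 21.4% of all 35116 promoters. CACGTG was in 1 of the 32, that of MIR142HG, and in 7.26% of all promoters. A MEF2 consensus motif was in 2 of the 32, both of the 6 promoters of MIR99AHG, and in 2.99% of all promoters. The promoters of MIR210HG and MIR142HG held no MEF2 consensus motif, and that of MIR23AHG held none of the motifs. A match describes the letters of this window only.

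Genes of the microRNA machinery were examined from a list of 29, of which 27 were tested. The numbers called were 13 higher and 7 lower (74.1% in all, against 41.0% of all genes), with a median log2 fold change of 0.09, and 9 higher and 9 lower after removal of the trend with GC content and length. Limited to genes with at least 1 CPM in 3 libraries, the fit called 13 of 27 higher and 8 lower, beside 3777 and 3807 of 14025 genes. DROSHA, which makes the first cut, fell from 122 ± 2.64 to 109 ± 3.36 CPM (SD, n = 3), which is -0.15 on the log2 scale (edgeR adjusted p = 4.3e-05). Its partner DGCR8 and the exporter XPO5 were not called, at 0.07 (edgeR adjusted p = 0.0748) and -0.04 (edgeR adjusted p = 0.323), but DGCR8 was called higher with the trend removed, at 0.12 (adjusted p = 0.00182). AGO2, the Argonaute that can cut its target, rose from 255 ± 6.04 to 342 ± 6.63 CPM, which is 0.42 on the log2 scale (edgeR adjusted p = 1.9e-18). TNRC6B, a silencing partner of the Argonautes, rose by 0.46 on the log2 scale. With the trend removed AGO2 was at 0.21 and TNRC6B at 0.20, both still called. HNRNPA1, an RNA-binding protein that helps process some hairpins, fell by 0.37. DICER1 rose by 0.11, but with the trend removed it was called lower at -0.10, so its direction depends on that choice. The calls of AGO3 (0.27) and of TARBP2 (-0.28), a DICER1 partner, were lost with the trend removed. LIN28A, which blocks let-7 processing, had no read in any library.

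MicroRNAs also lie in genes with names of their own, and 33 such hosts were examined. Of the 29 tested, 17 rose (58.6%, against 20.8% of all genes), 3 fell and 9 were not called, with a median log2 fold change of 0.15, and 15 rose and 2 fell with the trend removed. Limited to genes with at least 1 CPM in 3 libraries, the fit called 17 of 29 higher and 3 lower, beside 3777 and 3807 of 14025 genes. ARPP21, which holds miR-128-2 and is expressed in immature thymocytes, rose from 170 ± 1.68 to 252 ± 1.43 CPM, which is 0.57 on the log2 scale (edgeR adjusted p = 1.6e-22). R3HDM1, the host of the other miR-128 copy, rose by 0.32. HUWE1, a ubiquitin ligase gene that holds miR-98, rose by 0.36 (0.20 with the trend removed), and SMC4, a condensin gene that holds miR-15b and miR-16-2, rose by 0.29 (0.17 with the trend removed). EVL, an actin regulator that holds miR-342, fell from 811 ± 7.24 to 535 ± 6.60 CPM, which is -0.60 on the log2 scale (edgeR adjusted p = 1.6e-25).

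**Figure D4:**
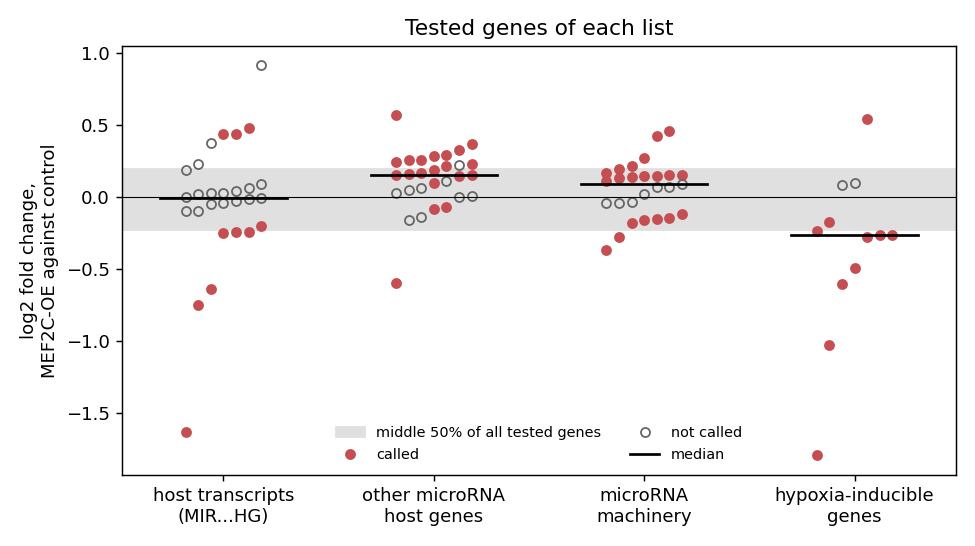
Log2 fold change of each tested gene in 4 lists, filled where called, with a bar at each list's median and a grey band over the middle 50% of all tested genes. The medians are -0.004 for the host transcripts, 0.15 for other microRNA host genes, 0.09 for the microRNA machinery and -0.26 for hypoxia-inducible genes.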

How the data were processed

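Total RNA was extracted with TRIzol and sequenced from TruSeq libraries, per the labels' protocols. The authors deposited unnormalized counts of reads per gene, made with Trim Galore, STAR and HTSeq on hg38, per the submitters' processing notes. The sources used here do not state tool versions, annotation release or strand setting. The 5 summary lines of each file were left out of library sizes.

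Samples were grouped by the labels. Identifiers were matched without their version to a table of gene names (61481 of 78932), and positions, length and GC content came from GENCODE 29. The models counted may differ from these, which would affect RPKM, exon positions and shared exon bases. Counts were tested in R 4.3.3 with edgeR 4.0.16 (filterByExpr, TMM, robust quasi-likelihood fit, MEF2C-OE against control) and Benjamini-Hochberg adjustment over 19086 genes. CPM used TMM-scaled totals, and RPKM divided CPM by exonic length. The alternatives were 2 other scalings, 2 other filters, DESeq2 1.42.0, limma 3.58.1 (voom), a replicate block, a GC and length offset, and the omission of each library. The fit was tested on simulated data. Counting floors cover counting error only.

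The members and gene lists were chosen with earlier results of these data known. Every expressed host was named, and from each list up to 5 called genes that changed most in either direction, among those averaging 1 CPM or more over all libraries, besides DROSHA, DGCR8, XPO5, DICER1, AGO2, MYC and MEF2C. MIR223HG, MIR34AHG, LIN28A, HIF1A, NDRG1 and ADM (its mean over all libraries was under 1 CPM) were named after their values were seen.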

Additional observations from a re-analysis of the deposited data

How the results depend on the processing

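The 7 lower and 3 higher hosts were the same number with a replicate block (3 higher, 7 lower), and the higher count moved to 5 with the GC and length offset. Leaving out 1 library at a time gave 3 to 3 higher and 6 to 7 lower hosts. The direction of the 10 called hosts held in all 14 alternatives. The replicate numbers did not pair the samples: deviations of same-numbered libraries correlated at 0.006, 0.012 and -0.003, and the block gave 3953 higher and 3845 lower genes overall.

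Among the uncalled hosts 13 changed sign in at least 1 alternative, none with an adjusted p under 0.05, and the cause was not tested. With library totals MIR29B2CHG was 0.0041, MIR762HG 0.014 and MIR22HG 0.015. With the GC and length offset MIR762HG was 0.095, MIRLET7BHG 0.076, MIR22HG 0.038, MIR222HG -0.013 and MIR3677HG 0.099. With DESeq2-style size factors in edgeR MIR22HG was 7.8e-05. Without 1 library each, the log2 fold changes ran from -0.023 to 0.074 (MIR1915HG), -0.061 to 0.10 (MIR4453HG), -0.072 to 0.066 (MIR29B2CHG), -0.054 to 0.024 (MIR762HG), -0.031 to 0.093 (MIR497HG), -0.11 to 0.035 (MIR503HG), -0.21 to 0.078 (MIRLET7IHG), -0.17 to 0.064 (MIRLET7BHG), -0.14 to 0.18 (MIR22HG), -0.023 to 0.098 (MIR222HG), -0.22 to 0.19 (MIR3677HG), -0.41 to 0.24 (MIR670HG) and -0.097 to 0.78 (MIR130AHG). MIR210HG ran from -1.81 to -1.51 and MIR23AHG from -0.74 to -0.49. Depth limits MIR3677HG, MIR670HG, MIR325HG and MIR130AHG, with standard errors of 0.24, 0.31, 0.51 and 0.59 on the log2 scale.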

Other observations

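Some microRNA hosts have a hyphenated symbol and so fall outside the naming rule. Of 10 such symbols with a row, 3 were tested. MIR194-2HG, the host of miR-194-2 and miR-192, had 18, 25 and 16 reads in the control libraries and 4, 3 and 4 in the MEF2C-OE libraries, so all MEF2C-OE libraries were lower, with a log2 fold change of -2.40 (edgeR adjusted p = 0.00135). MIR4435-2HG, also known as MORRBID, a regulator of myeloid cell lifespan, had a log2 fold change of 0.39 (edgeR adjusted p = 0.0176), although its groups overlapped. MIR9-1HG was not called, at -0.89 (edgeR adjusted p = 0.249).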
